A study of Homo sapiens with 3 samples.

Results

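The genes described here are 10 calcium entry genes, chosen by symbol: the transient receptor potential (TRP) channel genes TRPM8, TRPM4, TRPM7, TRPV6 and TRPC1, the ORAI channel genes ORAI1, ORAI2 and ORAI3, and the calcium sensor genes STIM1 and STIM2. All 10 symbols matched 1 Ensembl identifier each, out of 58302 genes in the files: ENSG00000144481 for TRPM8, ENSG00000130529 for TRPM4, ENSG00000092439 for TRPM7, ENSG00000165125 for TRPV6, ENSG00000144935 for TRPC1, ENSG00000276045 for ORAI1, ENSG00000160991 for ORAI2, ENSG00000175938 for ORAI3, ENSG00000167323 for STIM1 and ENSG00000109689 for STIM2. They were measured by RNA sequencing of ribosome-depleted total RNA in C4-2, a castration-resistant human prostate adenocarcinoma line derived from LNCaP, labelled wild type and without any listed treatment. The 3 libraries form a single group, so no condition was compared, and the neuroendocrine and neuropilin-2 knockdown samples of the series were not analysed here. Nothing in the labels says whether the libraries came from separate cultures, so every p-value applies to these 3 libraries only. The spread between them may be technical.

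Calcium enters an epithelial cell mainly through channels of the plasma membrane. In store-operated entry, STIM proteins in the membrane of the endoplasmic reticulum sense falling calcium in that store, move to the plasma membrane and open ORAI channels, which pass calcium with high selectivity. TRP channels form a separate family with many activating signals: TRPM8 responds to cold and menthol and is known for its expression in prostate epithelium, TRPV6 is a constitutively active, calcium-selective epithelial channel, TRPM4 is opened by calcium but passes monovalent ions, TRPM7 joins a magnesium- and calcium-permeable pore to a kinase domain, and TRPC1 is a subunit of receptor-operated channels. The list name, calcium entry genes, thus also covers TRPM4 and the STIM sensors. Summed levels are no measure of calcium entry.

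Promoter windows of 250 bases that end just before the RefSeq start site (GRCh38.p14) were available for 9 of the 10 genes and are shown for 4 of them, because these 4 include the lowest and the highest CpG content in the set. The start site of each window used was the one nearest to the canonical GENCODE transcript, at a distance of 0 bases in all 9. The windows are chr2:233917123-233917372 on the plus strand for TRPM8, chr7:142885746-142885995 on the minus strand for TRPV6, chr15:50686798-50687047 on the minus strand for TRPM7 and chr11:3855414-3855663 on the plus strand for STIM1, whose annotation in the files begins upstream of its window. Each sequence runs 5′ to 3′ on the strand of its gene, and capitals mark CpG dinucleotides and, in TRPM8, the letters TATAAA.
TRPM8: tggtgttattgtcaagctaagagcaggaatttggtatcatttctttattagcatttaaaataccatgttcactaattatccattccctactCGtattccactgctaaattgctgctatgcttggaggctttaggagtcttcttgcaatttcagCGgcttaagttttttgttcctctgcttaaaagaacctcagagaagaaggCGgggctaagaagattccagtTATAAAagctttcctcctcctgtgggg
TRPV6: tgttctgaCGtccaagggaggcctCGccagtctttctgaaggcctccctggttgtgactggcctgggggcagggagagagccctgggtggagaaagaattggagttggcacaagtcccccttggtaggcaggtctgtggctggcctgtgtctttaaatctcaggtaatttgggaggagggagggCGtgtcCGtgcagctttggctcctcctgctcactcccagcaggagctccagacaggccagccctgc
TRPM7: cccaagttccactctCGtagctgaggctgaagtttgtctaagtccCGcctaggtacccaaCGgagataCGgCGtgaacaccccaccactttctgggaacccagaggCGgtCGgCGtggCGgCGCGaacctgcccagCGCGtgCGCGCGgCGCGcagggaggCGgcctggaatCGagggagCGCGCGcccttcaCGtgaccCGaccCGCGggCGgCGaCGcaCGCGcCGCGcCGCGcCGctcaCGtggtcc
STIM1: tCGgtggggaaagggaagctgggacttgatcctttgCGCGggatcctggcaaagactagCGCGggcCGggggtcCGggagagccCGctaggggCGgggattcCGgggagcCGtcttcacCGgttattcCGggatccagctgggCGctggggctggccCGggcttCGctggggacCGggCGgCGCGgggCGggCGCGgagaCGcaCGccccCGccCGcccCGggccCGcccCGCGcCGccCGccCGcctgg

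The windows of TRPM8 and TRPV6 held few CpG dinucleotides, and those of the STIM genes, ORAI2 and TRPM7 held many. TRPM8 had 3, at percentile 22.9, and TRPV6 had 4, at percentile 29.3, against a median of 11 over 35116 RefSeq windows of the same length. These low counts were thus less extreme among all windows than the high ones. TRPM7 and STIM2 had 38 each, at percentile 96.7 of all windows, ORAI2 had 35, at percentile 94.2, and STIM1 had 34, at percentile 93.2. ORAI3, TRPC1 and TRPM4 lay near the middle with 13, 14 and 16. The plot of CpG counts sets these genes against the whole table.

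Short motifs were searched on both strands, and matches are letters in a window, not shown to be sites. The motifs were picked with these sequences in view. TATAAA was found in TRPM8 alone, with its first base 27 bases before the start site, and in 10.7% of all windows. CACGTG occurred in TRPM7 and ORAI2, or 2 of 9 windows, against 6.35% of all. GGGCGG was found in TRPM4, TRPM7, TRPC1, ORAI2, STIM1 and STIM2, or 6 of 9 windows, against 42.6% of all, and STIM1 held 8 matches, some of them overlapping each other.

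**Figure D1:**
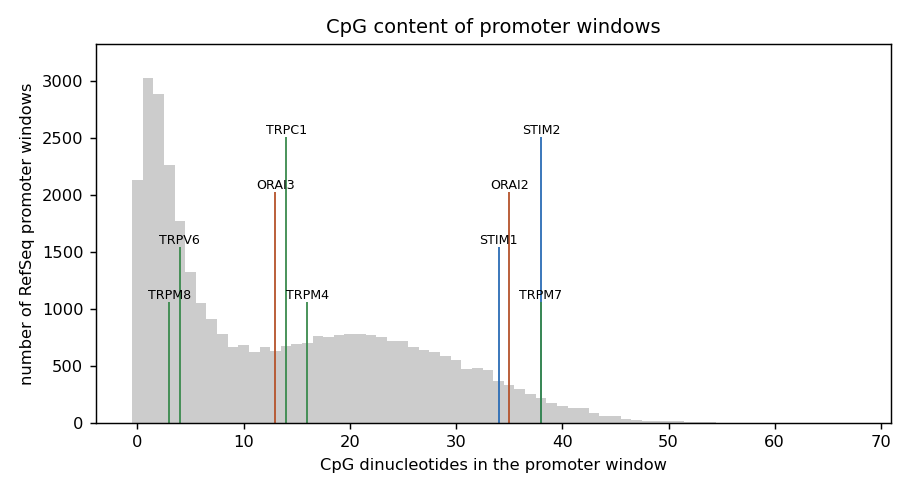
Number of CpG dinucleotides (x axis) in 35116 RefSeq promoter windows of 250 bases (grey bars, number of windows on the y axis), with 9 calcium entry genes as coloured lines whose heights carry no value. TRPM8 and TRPV6 sit at 3 and 4, TRPM7 and STIM2 share 38.

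The libraries held 47513470 to 51200272 reads assigned to genes, and the 10 genes together held 27724 to 29224 reads in a library, or 0.0574% of all. Markers of the labelled cell type were looked up: 8 of 8 prostate luminal markers were detected, against 71.8% of protein-coding genes. They were led by KLK3 at 1439.7 ± 26.3 TPM (mean ± SD, n = 3), with FOLH1 at 425 ± 28.2. None of 12 markers of immune, stromal, endothelial, basal and neuroendocrine cells was detected, their levels ran from 0 to 0.209 TPM, and 4 of them, including the leukocyte gene CD3E and the basal gene TP63, had no read in any of the 3. Both marker lists were chosen with earlier results of these data known, so they give no independent check of the label. A count of 0 in the smallest library leaves room for 0.0631 CPM (counts scaled by library size; the value of 3 reads there). TPM is the read count divided by the exon length of the gene and scaled to the same total in each library. A gene counts as detected when each of the 3 libraries holds 10 or more of its reads.

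All 10 calcium entry genes were detected, against 71.8% of 19708 protein-coding genes, and 9 of the 10 exceeded 1 TPM, against 62.7% of protein-coding genes. Their median was 14.8 TPM, and the median over all protein-coding genes was 5.43 TPM. The members and the other gene lists were chosen with earlier results of these data known. Such shares and medians therefore describe the lists and test nothing about them. With the exon lengths of the files, the levels fell into 3 tiers, shown in the plot of TPM by library: ORAI1, TRPM4 and STIM1 near 60 to 70 TPM, 6 genes between 7.01 and 22.2 TPM, and TRPC1 below 1 TPM. With canonical transcript lengths TRPV6 stood apart at 39.4 TPM, above TRPM7 at 17.6 and below ORAI1 at 67.3. In a bulk library, fewer cells with a transcript and less of it per cell cannot be told apart.

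**Figure D2:**
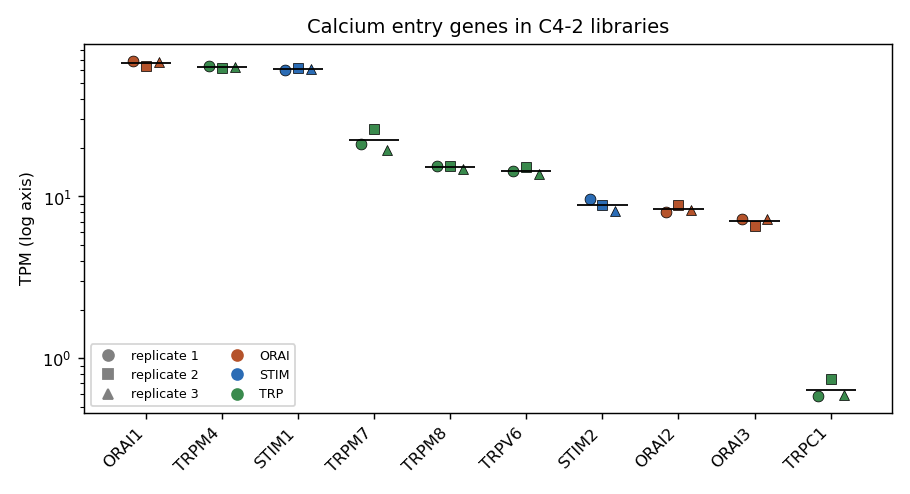
TPM of each gene (y axis, log scale) in the 3 C4-2 libraries (circle, square and triangle for replicates 1, 2 and 3), with a line at the mean and genes in order of mean level. ORAI1, TRPM4 and STIM1 stand between 60.6 and 68.9 TPM in every library, and TRPC1 stays between 0.587 and 0.749.

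STIM1, the main sensor of store calcium, was the more abundant sensor gene. It had 60.6, 62.1 and 61.2 TPM in replicates 1, 2 and 3, with 6823 to 7291 reads, and lay at percentile 87.7 among protein-coding genes. STIM2, a sensor that responds to smaller falls in store calcium, had 9.68, 8.92 and 8.11 TPM. The 3 STIM1 values stood well above all 3 STIM2 values. The difference was 2.77 ± 0.134 on the log2(TPM + 0.1) scale (SD, n = 3), or 6.84-fold, with STIM1 higher in 3 of 3 libraries (exact two-sided sign-flip permutation test, p = 0.25, the smallest that 3 libraries allow). STIM1 made up 87.3 ± 1.05% of the summed STIM level. STIM1 is annotated in the files at chr11:3854527-4093210 (GRCh38, plus strand) with 27 exon blocks, and 4.01% of its exon bases are shared with other genes, among them STIM1-AS1 on the opposite strand. STIM2 is at chr4:26857678-27025381 (GRCh38, plus strand), with 21 exon blocks and none shared.

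ORAI1, which encodes the pore of the classical store-operated channel, had the highest mean level of the set with the exon lengths of the files. Its values were 68.9, 63.9 and 68.0 TPM, at percentile 88.9 among protein-coding genes. ORAI2, a paralog that can join ORAI1 in mixed channels, had 8.05, 8.89 and 8.29 TPM, and ORAI3, the paralog found in mammals only, had 7.23, 6.56 and 7.25 TPM. The lowest ORAI1 value was above every ORAI2 and ORAI3 value. ORAI1 exceeded ORAI2 by 2.98 ± 0.131 log2 units, or 7.88-fold, and ORAI3 by 3.24 ± 0.0264, or 9.43-fold, each in all 3 libraries (sign-flip exact p = 0.25 for both). ORAI1 held 81.3 ± 0.671% of the summed ORAI level, ORAI2 10.2 ± 0.865% and ORAI3 8.51 ± 0.217%. ORAI1 lies at chr12:121626550-121642677 (GRCh38, plus strand) and has 2 exon blocks, with no exon base shared with another gene.

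The order of ORAI2 and ORAI3 turned with the length used. ORAI3 (chr16:30949066-30956461, plus strand, 4 exon blocks) shares 1397 exon bases, or 52.9%, with ENSG00000261487, a gene on the same strand. Reads that overlap both genes are dropped under the counting options in the file headers. The overlapping gene has 50 exon bases of its own and was assigned 0, 0 and 10 reads. Over all exons, ORAI3 minus ORAI2 was −0.26 ± 0.152 log2 units, lower in all 3 libraries (sign-flip exact p = 0.25). Counted per unshared exon base, ORAI3 had 14.6, 13.2 and 14.6 TPM, and lay 0.74 log2 units above ORAI2 (sign-flip exact p = 0.25). ORAI1 then exceeded ORAI3 by 2.16 log2 units, or 4.48-fold in place of 9.43-fold. With canonical lengths, ORAI3 minus ORAI2 was −0.046 (sign-flip exact p = 1). Per unshared exon base, the share of ORAI3 in the ORAI sum was 16.4 ± 0.389%, and ORAI1 held 73.8 ± 0.508%. With canonical lengths ORAI3 held 7.11 ± 0.166% and ORAI1 85.5 ± 0.497%. ORAI2 (chr7:102433106-102456821, plus strand, 5 exon blocks) shares 5.26% of its exon bases, with ALKBH4 on the opposite strand. Since strand was not used in counting, reads on bases shared with an opposite-strand gene are dropped too. In the canonical ORAI3 transcript, 50.4% of 50-base windows also occur in a transcript of another gene, against 0 to 4.58% in the other 9 genes.

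The STIM genes summed to 70.3, 71.1 and 69.4 TPM and the ORAI genes to 84.2, 79.3 and 83.6 TPM. The sensor sum minus the pore sum was −0.23 ± 0.0610 log2 units, lower in all 3 libraries (sign-flip exact p = 0.25), and −0.013 with canonical transcript lengths (sign-flip exact p = 1). These are transcript levels and give no count of proteins.

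TRPM4, the calcium-activated cation channel gene, led the TRP channels. It had 63.7, 61.8 and 63.5 TPM, with 6290 to 7062 reads, and made up 54.6 ± 2.44% of the summed level of the 5 TRP genes. TRPM7, the channel with a kinase domain, had 21.2, 26.0 and 19.4 TPM, so that replicate 2 stood above replicates 1 and 3. TRPM4 exceeded TRPM7 by 1.51 ± 0.238 log2 units, or 2.85-fold, in all 3 libraries (sign-flip exact p = 0.25). TRPM4 lies at chr19:49157741-49211836 (GRCh38, plus strand, 23 exon blocks) and TRPM7 at chr15:50552473-50686815 (GRCh38, minus strand, 39 exon blocks). No exon base of TRPM4 and 4.91% of those of TRPM7 are shared with another gene.

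TRPM8, the cold and menthol channel gene, had 15.3, 15.3 and 14.7 TPM. TRPM8 minus TRPM4 was −2.05 ± 0.0469 log2 units, lower in all 3 libraries (sign-flip exact p = 0.25), and the reads of TRPM8, scaled by TMM library size (trimmed mean of M values), spread 1.02-fold from lowest to highest. TRPV6, the calcium-selective epithelial channel gene, had 14.3, 15.1 and 13.8 TPM. The ranges of TRPM8 and TRPV6 overlapped, and TRPM8 was higher by 0.07 ± 0.0441 log2 units in all 3 libraries (sign-flip exact p = 0.25). TRPM8 is at chr2:233917398-234019522 (GRCh38, plus strand, 32 exon blocks).

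The level of TRPV6 depended on its gene model more than that of any other member. Its exons in the files merge to 11925 bases in 9 blocks and cover 81.9% of the gene (chr7:142871203-142885762, minus strand), while its canonical transcript has 2906 bases. The ratio of these lengths was 4.10, against 1.03 to 1.71 in the other 9 genes. With canonical lengths for every gene, TRPV6 had 39.1, 41.3 and 37.8 TPM and TRPM8 14.3, 14.3 and 13.8 TPM. TRPM8 minus TRPV6 was then −1.48 log2 units (sign-flip exact p = 0.25). The share of TRPV6 in the TRP sum moved from 12.5 ± 0.196% to 28.2 ± 0.527%, and TRPM4 still held 48.9 ± 2.03%. The plot of the 3 definitions of length shows TRPV6 and ORAI3 as the genes that move by over 1.5 times.

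**Figure D3:**
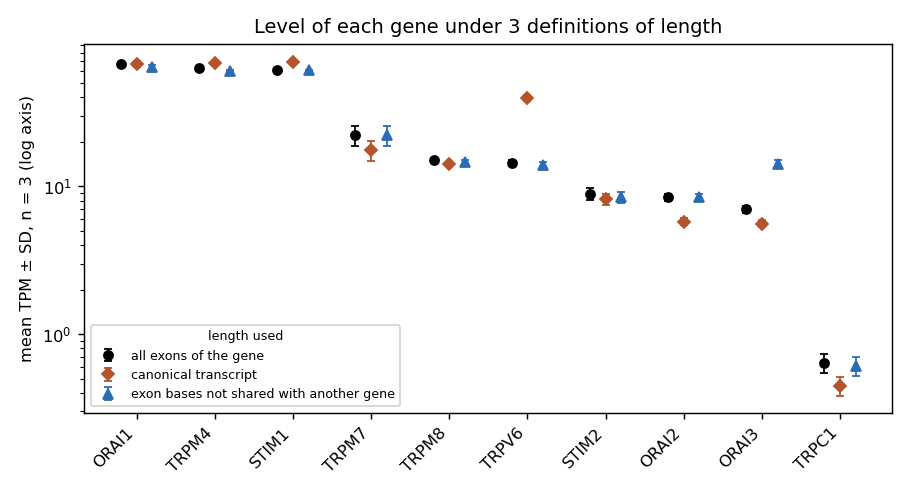
Mean TPM ± SD over 3 libraries (y axis, log scale) of each gene with 3 lengths: all exons (black circles), the canonical transcript (red diamonds) and exon bases that no other gene shares (blue triangles). TRPV6 rises from 14.4 to 39.4 TPM with the canonical length, and ORAI3 from 7.01 to 14.2 TPM with unshared bases.

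TRPC1, the receptor-operated channel subunit gene, was the lowest of the set. It had 47, 55 and 47 reads, or 0.587, 0.749 and 0.590 TPM, at percentile 34.1 among protein-coding genes. TRPV6 exceeded it by 4.30 ± 0.118 log2 units, or 19.7-fold, in all 3 libraries (sign-flip exact p = 0.25). With canonical lengths the difference was 6.18 log2 units, or 72.5-fold. TRPC1 is at chr3:142724074-142807888 (GRCh38, plus strand, 13 exon blocks) and shares no exon base. The summed level of the listed TRP genes was 115, 119 and 112 TPM. This level minus the sum of the STIM and ORAI genes was −0.40 ± 0.0588 log2 units, lower in all 3 libraries (sign-flip exact p = 0.25). Other TRP genes are left out of it, among them TRPM2 at 39.5 TPM, so the direction holds for the listed genes only.

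In the order ORAI1, TRPM4, STIM1, TRPM7, TRPM8, TRPV6, STIM2, ORAI2, ORAI3, TRPC1, 6 of 9 neighbouring pairs had ranges that did not overlap on the log2 scale. The ranges of TRPM4 and STIM1, of TRPM8 and TRPV6, and of STIM2 and ORAI2 overlapped. TRPM4 was above STIM1 by 0.04 ± 0.0410 log2 units in 2 of 3 libraries (sign-flip exact p = 0.5), and STIM2 above ORAI2 by 0.08 ± 0.160 in 2 of 3 (sign-flip exact p = 0.75). ORAI1 was above TRPM4 by 0.09 ± 0.0351, a difference that turned to −0.019 with canonical lengths (sign-flip exact p = 0.75). Over the 17 differences computed, p-values of the exact sign-flip test adjusted by the Benjamini-Hochberg method ran from 0.283 to 0.75, and none could pass 0.05. Nearest in level to ORAI1 over the 3 libraries, by distance in log2(TPM + 0.1) among protein-coding genes, were LAMA5, TIMM50 and CSTB (66.6 to 67.2 TPM), and nearest to TRPC1 were ACTN3, GATA4 and CFAP99 (0.658 to 0.680 TPM).

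TRPM7 differed most between libraries. Its reads scaled by TMM library size were 85.9, 103 and 80.8 CPM, 1.27-fold from lowest to highest, with replicate 2 the highest. By a chi-square test of the 3 counts against TMM library sizes, adjusted over 21039 detected genes, 4 of 10 members varied beyond counting noise (TRPM7, adjusted p = 4.1e-30; TRPM4, 0.00021; ORAI1, 0.00066; STIM2, 0.0076), against 46.1% of all detected genes. ORAI1 and TRPM4 were lowest in replicate 2, with 1.12-fold and 1.08-fold from lowest to highest, and STIM2 was highest in replicate 1 with 1.16-fold. STIM1, TRPM8, TRPV6, ORAI2, ORAI3 and TRPC1 did not pass, with adjusted p from 0.059 to 0.82 in the same chi-square test. TRPC1 ranged 1.25-fold, nearly as widely as TRPM7, but on about 50 reads a library.

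The file headers record no option to count read pairs as 1, and 81.7% of gene counts from 1 to 10 were even, so the mates of a pair may each have been counted. With the chi-square statistic divided by 2 to allow for that, 2 of 10 members passed (TRPM7, adjusted p = 2.5e-14, and TRPM4, 0.036), against 17.6% of detected genes. The share of all genes called went from 31.5% at 10 to 100 mean reads to 67.3% at 3000 to 10000, the range that holds TRPM4, STIM1 and TRPM7. In that range the median gene spread 1.07-fold between libraries and the 95th percentile was 1.17-fold, against 1.27-fold for TRPM7 and 1.08-fold for TRPM4.

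The libraries differed by exon GC content, and some members deviated with it. Over detected protein-coding genes, split into 5 equal bins of GC, the lowest bin was higher in replicate 2 by a median of 0.05 log2 units with a median of −0.07 in replicate 3, and the highest bin had −0.05 and 0.05. TRPM7 (39.0% GC) and TRPC1 (39.1%) were in the lowest bin and had their highest value in replicate 2, at 0.20 and 0.19 log2 units over the mean of the libraries. ORAI1 (62.5%) and TRPM4 (60.3%) were in the highest bin and had their lowest value there, at −0.10 and −0.06. Over all members, 6 of 10 deviated in replicate 2 in the direction of the median of their bin. The other 4 were ORAI2 (57.6% GC), at 0.04 where its bin had −0.03, TRPM8 and STIM2, at −0.02 and −0.03 where theirs had 0.03, and TRPV6. With library sizes set within these bins, an alternative chosen after seeing the data, 2 of 10 members passed the chi-square test, TRPM7 (adjusted p = 3.6e-14) and STIM2 (0.013), against 38.9% of genes, and with the statistic also divided by 2 it was TRPM7, or 1 of 10, against 9.62%. Without replicate 2, ORAI1 and TRPM4 did not pass (adjusted p = 0.73 and 0.28 in the chi-square test), and TRPM7 did at 0.027; 2 of 10 members passed, against 24.9% of genes. Without replicate 1 and without replicate 3 the count was 3 of 10, against 33.8% and 24.6%.

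**Figure D4:**
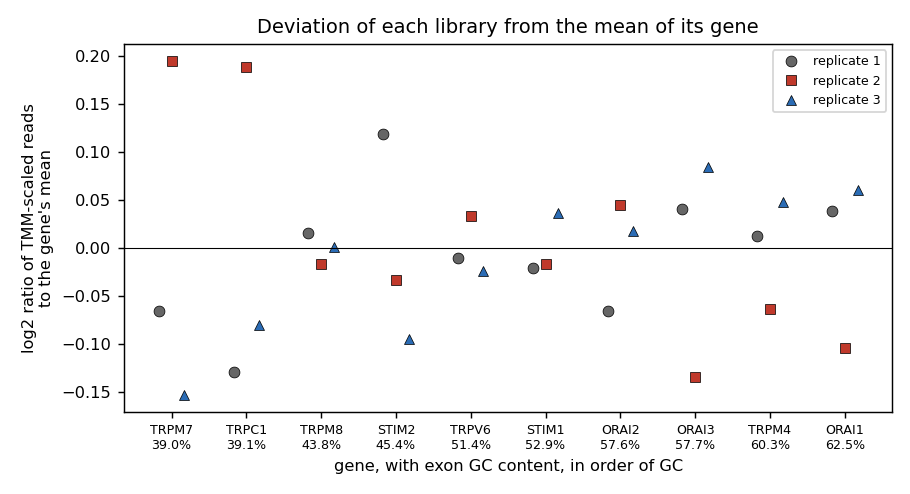
Log2 ratio of TMM-scaled reads to the mean of the gene (y axis) in each library (grey circles, red squares and blue triangles for replicates 1, 2 and 3), with genes in order of exon GC content, which is printed under each name. Replicate 2 is highest in TRPM7 and TRPC1 at 39.0% and 39.1% GC and lowest in TRPM4 and ORAI1 at 60.3% and 62.5%.

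Among 22 other TRP family genes, 11 were detected and 5 reached 1 TPM. TRPM2, an oxidant-activated channel gene, led at 39.5 ± 0.515 TPM, above TRPM7 and below TRPM4. The lysosomal channel genes MCOLN1 and MCOLN2 had 19.1 ± 0.446 and 5.36 ± 0.729 TPM, the polycystin gene PKD2 8.43 ± 0.344 and the capsaicin receptor gene TRPV1 5.83 ± 0.355, although TRPV1 shares 31.7% of its exon bases with other genes. TRPV5, the closest paralog of TRPV6, had 0.893 ± 0.157 TPM, TRPM5 0.548 ± 0.219 and PKD2L2 0.544 ± 0.172. TRPV3, MCOLN3 and TRPM3 were detected between 0.0984 and 0.288 TPM. None of the 5 other TRPC genes measured was detected, so TRPC1 was the one member of its subfamily that reached 10 reads in every library. The median of the 22 genes was 0.161 TPM.

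All 14 genes of STIM and ORAI regulation were detected, with a median of 31.0 TPM. The highest were PDIA3, an oxidoreductase that acts on STIM1, at 308 ± 17.1 TPM, SARAF, which inactivates store-operated entry, at 125 ± 8.76, and ESYT1, a tether between the endoplasmic reticulum and the plasma membrane, at 105 ± 2.69. Of 12 genes of calcium release, uptake and binding in the endoplasmic reticulum 12 were detected, led by the luminal buffer gene CALR at 1722 ± 27.3 TPM, the cell death suppressor gene TMBIM6 at 327 ± 14.8 and the lectin chaperone gene CANX at 326 ± 18.2. Of 10 phospholipase C genes, whose products start store release, 9 were detected, with PLCG1 at 47.2 ± 1.66 TPM, PLCB3 at 24.9 ± 1.43 and PLCB4 at 14.1 ± 0.503.

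Of 18 voltage-gated channel genes 14 were detected and 5 reached 1 TPM, with a median of 0.296 TPM, and the 3 highest encode auxiliary subunits: CACNB3 at 19.9 ± 1.47 TPM, CACNB1 at 4.61 ± 0.691 and CACNA2D2 at 3.21 ± 0.272. Of 9 calcium export and Golgi pump genes 4 were detected, led by the Golgi pump gene ATP2C1 at 30.0 ± 2.19 TPM and the plasma membrane pump genes ATP2B1 at 21.2 ± 1.28 and ATP2B4 at 15.8 ± 0.292.

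All 10 genes of mitochondrial calcium uptake were detected, led by the outer membrane channel gene VDAC1 at 325 ± 12.9 TPM, the uniporter regulator gene SMDT1 at 100 ± 3.41 and the inner membrane exchanger gene LETM1 at 88.9 ± 0.850. All 16 genes of the calcineurin and NFAT pathway, which reads store-operated calcium, were detected, led by the calcineurin subunit gene PPP3CA at 348 ± 21.2 TPM and CALM3, which encodes calmodulin, at 302 ± 4.67. Among 14 partner and regulator genes of TRPM8, TRPM4 and TRPV6, 10 were detected, with KLK3, which encodes a secreted prostate protease, highest, then the scaffold gene NHERF1 at 239 ± 3.62 TPM. The plot of calcium handling genes by list sets these beside the 10 members.

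**Figure D5:**
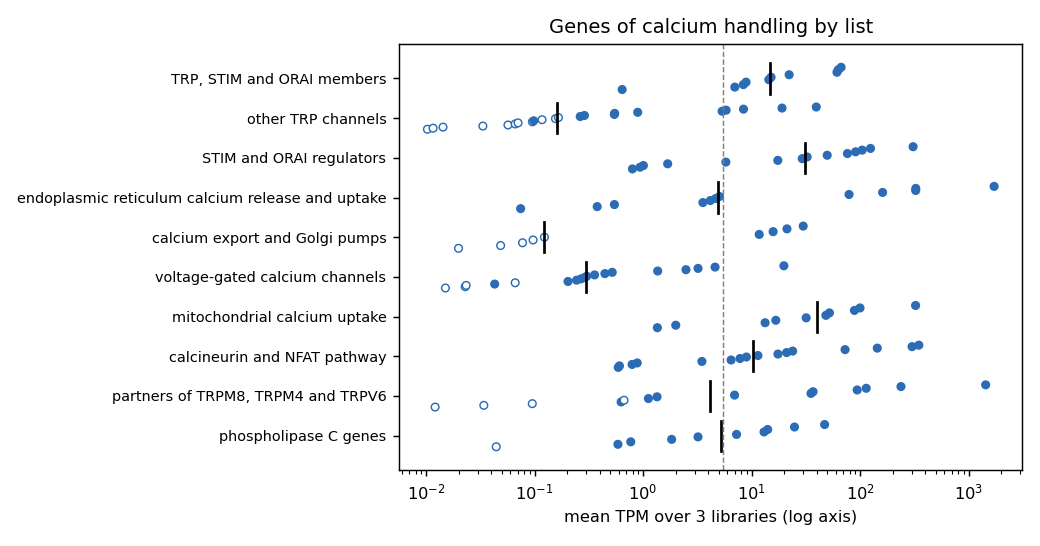
Mean TPM over 3 libraries (x axis, log scale) of each gene in 10 lists of calcium handling genes, filled where at least 10 reads were found in every library and open otherwise, with a bar at the median of each list and a dashed line at 5.43 TPM, the median of protein-coding genes. The 10 members have a median of 14.8 TPM, the 22 other TRP genes 0.161 and the 18 voltage-gated genes 0.296.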

How the data were processed

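RNA was prepared from 3 C4-2 libraries with ribosomal RNA depletion and a directional library kit, per the labels' protocols. The submitters' processing notes give build GRCh38 and list STAR 2.7.0f, DESeq2 1.26.0, Subread 1.6.3, Trim Galore and FastQC. Aligner settings are not given in the sources used here. Unnormalized read counts for each gene were deposited by the authors, made by featureCounts 1.6.3 with the Ensembl release 90 annotation, per the file headers. The options recorded leave strand ignored and drop reads that map to several places or overlap several genes. Names, biotypes and canonical transcripts came from GENCODE release 44 (57532 of 58302 identifiers matched), GC content from hg38 and promoters from RefSeq.

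TPM used the exon lengths in the files. Differences were taken on log2(TPM + 0.1), with exact sign-flip tests. Variation was a chi-square test against TMM sizes (edgeR 4.0.16, R 4.3.3), adjusted over genes with at least 10 reads in every library and tested on simulated data, threshold 0.05. edgeR's group test was not used, since there is 1 group. Alternatives changed pseudocount, length, size factors (DESeq2 1.42.0), filters and libraries. Python 3.11.15, numpy 2.4.6, pandas 2.3.3 and scipy 1.17.1 did the rest. Named genes were the 10 members, the 3 highest detected genes of each other list, all detected TRP genes, and the 3 nearest in level to the highest and lowest member. Some genes this rule names, and 1 motif searched, are not reported here. Members and lists were chosen with earlier results of these data known. Limits from counts cover counting error only.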

Additional observations from a re-analysis of the deposited data

How the results depend on the processing

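Of 119 recomputed differences 113 kept their direction. Many of them could not turn. Where a pair had the same sign in all 3 libraries, changing the pseudocount or leaving out a library keeps that sign. For those pairs only the 2 changes of length could reverse the direction. With canonical transcript lengths, TRPM8 minus TRPV6 turned to −1.48 log2 units, ORAI1 minus TRPM4 to −0.019 and TRPM4 minus STIM1 to −0.033. With unshared exon bases, ORAI3 minus ORAI2 turned to 0.74 and TRPM4 minus STIM1 to −0.020. Leaving out 1 replicate in turn, STIM2 minus ORAI2 ran from −0.013 without replicate 1 to 0.13 without replicate 3. In the first 2 settings the read counts stayed the same, the lengths changed, and genes without such a length left the TPM total. All 10 members stayed detected without each replicate and at 3 reads, and 9 of 10 passed at 50 reads or at 1 TPM. The count of members that varied between libraries was 4, and the same 4 genes passed with DESeq2 size factors, total reads and both other filters. It was 2 with the statistic divided by 2 (17.6% of all genes), 2 with library sizes set within bins of GC content (38.9%) and 1 with both (9.62%), the last 2 settings being chosen after seeing the data. Leaving out 1 replicate in turn gave 2 to 3 (24.6% to 33.8% of all genes), and without replicate 2 the 2 were TRPM7 and STIM2. TRPM7 passed in all 10 alternatives, most weakly without replicate 2 (adjusted p = 0.027 in the chi-square test). The statistic was not divided by 2 in that setting. With 3 libraries no difference between genes could pass 0.05, and with 47 to 55 reads TRPC1 did not pass at a spread close to that of TRPM7. TPM over protein-coding nuclear genes was 1.52 times higher for all 10 members (ORAI1 101.7, TRPC1 0.975), since its total leaves out other RNA. No paired analysis was possible because there is 1 group.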
